A study of Mus musculus with 18 samples.

Results

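Foxi1, Ascl3, Cftr, Atp6v1b1, Atp6v0d2, Muc5b, Muc20 and Spdef are 8 genes known from ion-transporting and mucus-secreting epithelial cells, and they were followed here in thymic epithelial cells (TEC). They were chosen by gene symbol and are 8 of the 27179 genes in the deposited count table. All 8 passed the filter on low counts, which left 19364 genes for testing. RNA-seq was done on sorted TEC of 6 groups with 3 libraries each: medullary TEC with high surface MHC class II (mTEChi) from Kat7 knockout (KO) and wildtype (WT) mice, medullary TEC with low MHC class II (mTEClo) from KO and WT mice, and cortical TEC (cTEC) from KO and WT mice. All mice had the C57BL/6 background. Each library came from a pool of mice, with KO pools numbered 4 to 6 and WT pools numbered 1 to 3, and each pool gave 1 library of every subset. Which part of Kat7 was deleted, the driver of the deletion, the cells in which it took place, the age of the mice and the number of mice in a pool are absent from the labels used here. The KO and WT libraries are always different pools, so a difference in handling between pools cannot be told apart from genotype.

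Kat7, the gene that encodes the targeted histone acetyltransferase, had 0.765 to 4.16 CPM (read counts scaled to library size) in the 9 KO libraries, against 38.6 to 83.4 CPM in the 9 WT libraries. Library totals ran between 3554089 and 20054360 assigned reads. They differed by group: KO mTEClo had 14411708 to 19356071 reads and WT mTEClo had 6565309 to 9815559. The mTEChi libraries had 3554089 to 13373646 reads and the cTEC libraries had 13300969 to 20054360. Markers of other cell types moved with genotype as well. The summed level of 12 macrophage and dendritic cell markers was 828 to 987 CPM in KO mTEChi and 1560 to 1620 CPM in WT mTEChi, and 42.7 to 52.8 CPM in KO cTEC and 157 to 223 CPM in WT cTEC. The sum of 3 parathyroid markers was 704 to 2320 CPM in KO mTEClo and 65.4 to 202 CPM in WT mTEClo. In cTEC it was 485 to 1520 CPM in KO and 7.37 to 32.5 CPM in WT. Of these 3 markers, Pth and Gcm2 rose in both subsets. The third, Casr, fell in cTEC (log2 -1.47) and had no call in mTEClo (-0.30, edgeR adjusted p = 0.5). The macrophage list had 10 tested genes, of which 8 fell and 1 rose in mTEChi and 5 fell in cTEC. Over all tested genes, 17.1% rose and 19.3% fell in mTEChi, 18.9% and 15.8% in mTEClo, and 22.3% and 26.7% in cTEC. The sum of 12 thymocyte markers was 237 to 383 CPM in KO cTEC and 50.8 to 125 CPM in WT cTEC, where 8 of the 12 rose and 0 fell. In mTEChi it was 67.3 to 86.9 CPM in KO and 87.2 to 110 CPM in WT, where 0 rose and 4 fell. In mTEClo the sums overlapped, and 2 rose and 0 fell. The sum of 10 fibroblast and mural cell markers was 560 to 653 CPM in KO and 307 to 322 CPM in WT mTEChi. It was 720 to 822 CPM in KO and 1090 to 1240 CPM in WT mTEClo. In cTEC it was 2420 to 2560 CPM in KO and 1270 to 1440 CPM in WT. These markers did not move together, and 3 rose and 3 fell in mTEChi and likewise in mTEClo. In cTEC, where the sum was higher in KO, 2 rose (log2 1.75 for Dcn and 0.59 for Acta2) and 6 fell. The median log2 fold change of the list there was -1.34. The sum of 6 endothelial markers was 65 to 71.2 CPM in KO and 33.8 to 38.2 CPM in WT mTEChi. It was 53.4 to 73.9 CPM in KO and 20.7 to 29.6 CPM in WT mTEClo. In cTEC it was 8.42 to 8.78 CPM in KO and 24 to 40.1 CPM in WT. Only 3 of the 6 were tested, and they did not move together. Tek rose in mTEChi (log2 1.23) and mTEClo (1.45) and fell in cTEC (-2.68). Cldn5 fell in mTEChi (-2.49) and had no call in the other subsets, and Pecam1 had no call in any subset. The sum of 4 B cell markers was 33.6 to 46.9 CPM in KO and 49.6 to 52.6 CPM in WT mTEChi, and 2.26 to 4.4 CPM in KO and 10.2 to 21.4 CPM in WT cTEC; in mTEClo it overlapped. Within each genotype, Aire and Psmb11 were highest in the subset they mark. Aire, the regulator that marks mTEChi, averaged 676 CPM in KO and 1180 CPM in WT mTEChi and 17.3 to 49.8 CPM in the other 4 groups. The cortical proteasome gene Psmb11 averaged 651 CPM in KO and 232 CPM in WT cTEC and 17.6 to 91.2 CPM in the medullary groups. Of 12 TEC identity genes, 6 rose and 2 fell in mTEChi, 7 and 3 in mTEClo, and 6 and 5 in cTEC. Psmb11 rose in all 3 subsets (log2 2.14, 1.93 and 1.49), as did Prss16 (1.85, 2.37 and 1.35) and Foxn1 (1.36, 1.39 and 1.35). The genes that fell in mTEChi were Aire (-0.81, edgeR adjusted p = 0.05 after rounding) and H2-Aa (-0.59). In mTEClo Ccl21a (-1.59), H2-Aa (-0.64) and Tnfrsf11a (-0.39) fell. In cTEC Ccl21a (-1.59), Aire (-1.53), Tnfrsf11a (-1.18), Cd80 (-0.85) and Krt5 (-0.52) fell. The epithelial gene Epcam averaged 844 to 1530 CPM over the 6 groups. The part of these other cell types in the results that follow was not tested.

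Ionocytes are rare epithelial cells of the airway that depend on the forkhead factor FOXI1, and intercalated cells of the kidney use the same factor; both carry the vacuolar proton pump (V-ATPase), a rotary enzyme of many subunits that acidifies lumens and organelles. The chloride channel CFTR is abundant in airway ionocytes. Goblet and other mucous cells secrete gel-forming mucins and depend on the ETS factor SPDEF. Medullary TEC are known to express genes of peripheral tissues, some of them in small groups of cells called mimetic cells that resemble a peripheral cell type.

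The members moved in both directions. In mTEChi, KO libraries were lower than WT libraries in Foxi1, Ascl3, Atp6v1b1 and Muc5b, and higher in Muc20. In mTEClo, KO libraries were higher in Muc5b, Muc20 and Spdef, and no member fell. In cTEC, KO libraries were lower in Foxi1, Cftr, Atp6v0d2 and Muc5b and higher in Muc20. These calls used edgeR's quasi-likelihood test with Benjamini-Hochberg adjustment over all tested genes at 0.05. In bulk libraries, fewer cells of a type and less RNA per cell cannot be told apart.

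**Figure D1:**
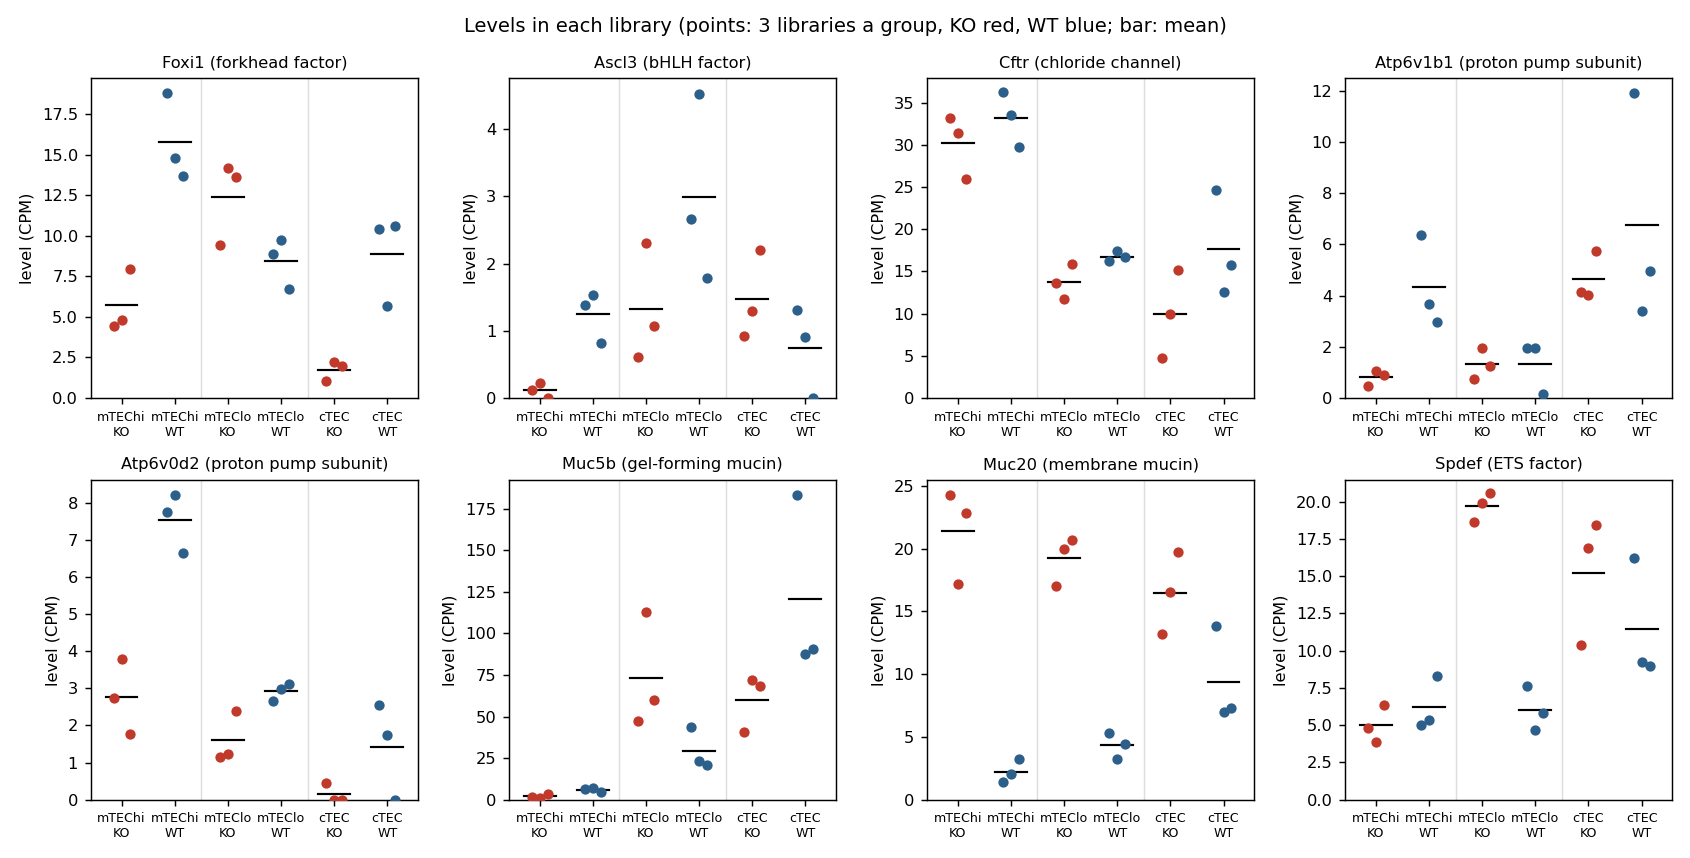
Level of each member in CPM (linear axes from 0, a panel for each gene) in each library, with KO groups left of the WT groups of the same subset; points are libraries and bars are group means. Muc20 sits between 13.2 and 24.3 CPM in all 9 KO libraries, and Foxi1 in KO cTEC lies below every other group.

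Foxi1, the forkhead factor that specifies ionocytes, had 4.42, 4.78 and 7.95 CPM in KO mTEChi (pools 4, 5 and 6), against 18.8, 14.8 and 13.7 CPM in WT mTEChi (pools 1, 2 and 3). All KO mTEChi libraries lay below all WT mTEChi libraries. Foxi1 fell by 1.47 on the log2 scale in KO mTEChi (SE 0.31, edgeR adjusted p = 0.00118). In cTEC the KO libraries had 1.06, 2.2 and 2 CPM, against 10.4, 5.68 and 10.6 CPM in WT, and the groups again did not overlap; the log2 fold change was -2.33 (SE 0.32, edgeR adjusted p = 6.59e-06). In mTEClo the KO libraries had 9.4, 14.2 and 13.6 CPM, against 8.89, 9.71 and 6.69 CPM in WT. The mTEClo groups overlapped, and the log2 fold change of 0.55 (SE 0.29) did not pass the test (edgeR adjusted p = 0.154). The order of the subsets differed by genotype. KO mTEChi was below KO mTEClo (log2 -1.14, edgeR adjusted p = 0.00421), whereas WT mTEChi was above WT mTEClo (0.89, edgeR adjusted p = 0.0162); the WT call was lost without mTEChi pool 1 (0.0592) or mTEClo pool 3 (0.0718). The 2 differences themselves differed by -2.03 on the log2 scale (SE 0.43, edgeR adjusted p = 0.00294).

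Ascl3, a basic helix-loop-helix factor found in ionocytes, was near the limit of detection. KO mTEChi libraries had 0.12, 0.228 and 0 CPM (1, 3 and 0 reads), against 1.38, 1.54 and 0.813 CPM (5, 13 and 6 reads) in WT mTEChi. The groups did not overlap, and the fitted log2 fold change was -3.09 (SE 1.09, edgeR adjusted p = 0.0318), with 4 reads in all in KO and 24 in WT. The library at 0 reads allows a level of up to 0.442 CPM (3 reads, counting error only). The call is not firm at this depth: it was lost when KO pool 4, 5 or 6 or WT pool 1 or 2 was left out in turn (adjusted p between 0.0501 and 0.0976), and limma-voom gave 0.0754. In mTEClo the libraries had 0.608, 2.31 and 1.07 CPM in KO, against 2.66, 4.53 and 1.78 CPM in WT (log2 -1.16, SE 0.72, edgeR adjusted p = 0.226). In cTEC they had 0.924, 1.29 and 2.21 CPM in KO, against 1.31, 0.902 and 0 CPM in WT (log2 1.04, SE 0.74, edgeR adjusted p = 0.257). Both of these pairs overlapped.

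In GRCm38.p6, Foxi1 lies on chromosome 11 at 34204341-34208089, Ascl3 on chromosome 7 at 109727465-109731732, Atp6v0d2 on chromosome 4 at 19876838-19922566 and Spdef on chromosome 17 at 27714446-27731003, all on the minus strand. Atp6v1b1 lies on chromosome 6 at 83743017-83758855, plus strand. The promoters of both regulators are shown because each was called lower in KO mTEChi, although the Ascl3 call is not firm. Log2 CPM of Foxi1 and Ascl3 had a Pearson correlation of 0.055 over the 18 libraries. The promoters of the pump gene Atp6v1b1, which fell in KO mTEChi, and of Muc20 and Spdef, which each rose in KO mTEClo, are shown too. Each is 300 bases of RefSeq sequence for GRCm38.p6 (250 before the start and 50 after), 5′ to 3′ on the gene's own strand; the windows are chr11:34208040-34208339 (minus strand), chr7:109731683-109731982 (minus strand), chr6:83742767-83743066 (plus strand), chr16:32797386-32797685 (minus strand) and chr17:27728902-27729201 (minus strand). The start behind the Spdef window lies inside the span annotated for the gene, so that window belongs to another transcript start than the outermost one. RefSeq promoters were matched for 6 of the 8 members: Foxi1, Ascl3, Cftr, Atp6v1b1, Muc20 and Spdef. Capitals mark matches, on either strand, to TGTTTAC or TGTTTGC (forkhead), CAGCTG (E-box), CCGGAT (ETS) or TATAAA.
Foxi1: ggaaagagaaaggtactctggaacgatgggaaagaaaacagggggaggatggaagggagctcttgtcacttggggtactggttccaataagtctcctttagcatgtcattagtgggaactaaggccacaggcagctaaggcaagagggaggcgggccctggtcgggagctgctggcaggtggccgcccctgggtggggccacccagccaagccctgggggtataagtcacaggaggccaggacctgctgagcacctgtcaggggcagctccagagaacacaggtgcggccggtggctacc
Ascl3: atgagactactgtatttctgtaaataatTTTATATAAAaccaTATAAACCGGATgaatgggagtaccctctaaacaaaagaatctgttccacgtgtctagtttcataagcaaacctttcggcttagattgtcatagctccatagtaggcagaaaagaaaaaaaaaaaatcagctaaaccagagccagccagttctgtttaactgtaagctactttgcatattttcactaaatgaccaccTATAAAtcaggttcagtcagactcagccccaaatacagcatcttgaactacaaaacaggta
Atp6v1b1: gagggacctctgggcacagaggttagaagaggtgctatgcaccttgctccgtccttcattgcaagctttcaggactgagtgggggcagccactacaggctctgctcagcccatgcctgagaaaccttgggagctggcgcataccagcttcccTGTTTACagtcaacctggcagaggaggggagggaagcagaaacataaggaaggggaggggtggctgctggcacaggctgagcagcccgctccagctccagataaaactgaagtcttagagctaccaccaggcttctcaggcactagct
Muc20: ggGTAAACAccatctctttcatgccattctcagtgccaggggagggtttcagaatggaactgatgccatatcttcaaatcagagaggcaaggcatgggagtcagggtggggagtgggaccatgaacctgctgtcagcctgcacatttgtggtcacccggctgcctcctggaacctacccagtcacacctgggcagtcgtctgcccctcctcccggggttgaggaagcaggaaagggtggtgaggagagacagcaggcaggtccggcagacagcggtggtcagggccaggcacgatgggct
Spdef: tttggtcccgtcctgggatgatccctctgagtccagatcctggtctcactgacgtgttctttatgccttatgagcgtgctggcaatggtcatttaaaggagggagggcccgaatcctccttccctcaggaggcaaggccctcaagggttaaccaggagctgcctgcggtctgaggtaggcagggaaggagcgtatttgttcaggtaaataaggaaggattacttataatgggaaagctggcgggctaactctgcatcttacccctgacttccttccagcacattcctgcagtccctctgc

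TGTTTAC occurred in Atp6v1b1, 98 bases before the start, and on the opposite strand in Muc20, 248 bases before the start. It is present in 3.65% of all 32851 promoters of the table. Ascl3 held CCGGAT, which 6.04% of promoters hold, and 4 matches to TATAAA, of which the 2 farthest from the start overlap; 13.6% of promoters hold TATAAA. Foxi1, Cftr and Spdef had no match to any of the 5 motifs, and CAGCTG and TGTTTGC, present in 16.3% and 5.07% of promoters, matched none of the 6. Cftr's promoter held 31 CpG sites and 71.3% G and C, against a median of 7 CpG sites and 52.7% over the table. The other 5 held 3 to 7 CpG sites.

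Cftr, the chloride channel, had 33.2, 31.4 and 25.9 CPM in KO mTEChi, against 36.3, 33.6 and 29.7 CPM in WT mTEChi. These ranges overlapped, and the log2 fold change was -0.13 (SE 0.28, edgeR adjusted p = 0.743). In mTEClo the libraries had 13.6, 11.7 and 15.9 CPM in KO, against 16.2, 17.4 and 16.7 CPM in WT, which did not overlap but did not pass the test (log2 -0.29, SE 0.29, edgeR adjusted p = 0.474). In cTEC they had 4.75, 10 and 15.2 CPM in KO, against 24.7, 12.6 and 15.8 CPM in WT. Cftr fell by 0.80 in KO cTEC (SE 0.28, edgeR adjusted p = 0.0241), although the KO and WT ranges overlapped; without KO pool 4 the fold change was -0.48 (adjusted p = 0.112), without KO pool 5 -0.80 (0.06) and without WT pool 1 -0.49 (0.165), and with the 2 groups compared alone the adjusted p was 0.102. Cftr lies on chromosome 6 at 18170687-18322770, plus strand.

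Atp6v1b1 encodes the B1 subunit of the V1 sector, known from intercalated cells. KO mTEChi libraries had 0.478, 1.06 and 0.883 CPM, against 6.37, 3.68 and 2.98 CPM in WT mTEChi. All KO libraries lay below all WT libraries (log2 -2.33, SE 0.63, edgeR adjusted p = 0.0076). In mTEClo the libraries had 0.744, 1.97 and 1.27 CPM in KO, against 1.94, 1.94 and 0.149 CPM in WT (log2 -0.06, SE 0.60, edgeR adjusted p = 0.964). In cTEC they had 4.16, 4.01 and 5.73 CPM in KO, against 11.9, 3.4 and 4.95 CPM in WT (log2 -0.53, SE 0.49, edgeR adjusted p = 0.388). The WT cTEC value of 11.9 CPM comes from pool 1, a library that held the highest WT cTEC value of every member except Foxi1. Without that library the cTEC log2 fold change of Atp6v1b1 was 0.15. In mTEClo the sign also turned when KO pool 4, WT pool 1 or WT pool 2 was left out.

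Atp6v0d2 encodes the d2 subunit of the membrane sector, which osteoclasts and macrophages also express. KO mTEChi libraries had 2.75, 3.8 and 1.77 CPM, against 7.75, 8.2 and 6.64 CPM in WT mTEChi. The groups did not overlap, yet the test with all 6 groups did not pass (log2 -1.41, SE 0.74, edgeR adjusted p = 0.143). With the 2 groups compared alone the adjusted p was 0.00181, and with libraries thinned to the smallest total it was 0.0308. In mTEClo the libraries had 1.15, 1.24 and 2.4 CPM in KO, against 2.66, 2.98 and 3.12 CPM in WT, which did not overlap (log2 -0.85, SE 0.76, edgeR adjusted p = 0.412). In cTEC they had 0.462, 0 and 0 CPM in KO (7, 0 and 0 reads), against 2.55, 1.75 and 0 CPM in WT (35, 33 and 0 reads). The cTEC groups overlapped at 0, and the fitted log2 fold change was -3.20 (SE 1.01, edgeR adjusted p = 0.0129); the call was lost without KO pool 5 or 6 or WT pool 1 (adjusted p between 0.0547 and 0.0602), in thinned libraries (0.0775) and with limma-voom (0.181). The libraries at 0 reads allow up to 0.194 CPM (KO pool 5), 0.158 CPM (KO pool 6) and 0.16 CPM (WT pool 3).

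Markers of osteoclasts, which are known to use Atp6v0d2, were followed beside it. The 6 osteoclast markers summed to 23.2 to 27.4 CPM in KO mTEChi and 49.2 to 57.4 CPM in WT mTEChi, and 2 of the 4 tested fell there; Calcr, the calcitonin receptor, averaged 2.72 CPM in KO mTEChi and 14.2 CPM in WT mTEChi. In cTEC the osteoclast sums were 7.57 to 8.47 CPM in KO and 9.1 to 11.3 CPM in WT, and the fusion genes Ocstamp and Dcstamp were at 0 in KO cTEC and averaged 0.163 and 0.0485 CPM in WT cTEC. There 1 of the 4 tested fell, Ctsk (log2 -1.49), and Acp5 had 0.25 (edgeR adjusted p = 0.388). In mTEClo, where the KO libraries of Atp6v0d2 also lay below those of WT, the osteoclast sums overlapped, with 10.6 to 14.5 CPM in KO and 12 to 14.9 CPM in WT. By edgeR 0 of the 4 tested fell in mTEClo after adjustment, and 1 had an unadjusted p under 0.05, Ctsk (log2 -0.57, adjusted p = 0.0938), while Acp5 rose (0.70, edgeR adjusted p = 0.0414). Ocstamp and Dcstamp were at 0 in the mTEClo libraries of either genotype. In mTEChi Ocstamp averaged 0.486 CPM in KO and 1.29 CPM in WT. Beside these osteoclast counts, 19.3% of all tested genes fell in mTEChi, 15.8% in mTEClo and 26.7% in cTEC, and 18.9% rose in mTEClo. The part of osteoclast-like cells, and of the macrophages whose sums are given above, in the level of Atp6v0d2 was not tested.

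Levels per kilobase set these 2 subunits beside their widely expressed paralogs. Atp6v1b1 averaged 0.419 CPM per kb in KO mTEChi and 2.25 CPM per kb in WT mTEChi, while Atp6v1b2 averaged 75.9 and 64.4 CPM per kb in the same groups. Atp6v0d2 averaged 1.11 CPM per kb in KO mTEChi and 3.01 CPM per kb in WT mTEChi, while Atp6v0d1 averaged 137 and 97.4 CPM per kb. Atp6v0d1 rose in every subset (log2 0.49 in mTEChi, 0.93 in mTEClo and 1.23 in cTEC), and Atp6v1b2 rose in mTEClo (0.75) and cTEC (0.46) and had 0.24 in mTEChi, where it did not pass the test (edgeR adjusted p = 0.154).

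**Figure D2:**
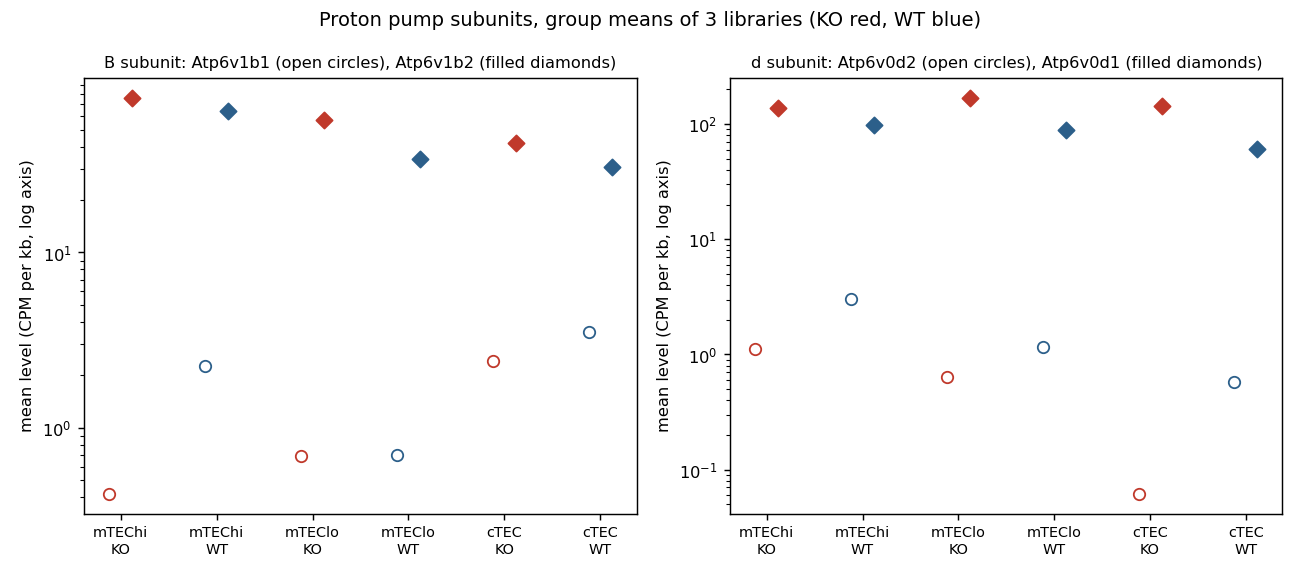
Mean level per kilobase (log axis) of the 2 pump members and their paralogs in each group, KO left of WT. Both paralogs lie above both members in every group.

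Muc5b, a gel-forming mucin, showed opposite changes in the medullary subsets. In mTEChi it had 1.91, 1.21 and 3.68 CPM in KO, against 6.37, 6.77 and 4.61 CPM in WT, without overlap. The mTEChi fold change was -1.50 (log2, SE 0.58, edgeR adjusted p = 0.0488), and the call was lost without KO pool 4 or 5 or any 1 WT pool (adjusted p between 0.0649 and 0.202), with 0.219 from limma-voom. In mTEClo it had 47.3, 113 and 59.7 CPM in KO, against 43.8, 23.3 and 20.8 CPM in WT, again without overlap. Muc5b rose by 1.31 in KO mTEClo (SE 0.35, edgeR adjusted p = 0.00639), and without KO pool 5, which held the 113 CPM, the value was 0.86 (adjusted p = 0.0669). In cTEC it had 40.5, 71.9 and 68.2 CPM in KO, against 183, 87.8 and 90.5 CPM in WT, with every KO library below every WT library. Muc5b fell by 0.99 in KO cTEC (SE 0.33, edgeR adjusted p = 0.0186); without KO pool 4 it was -0.79 (0.0883) and without WT pool 1 it was -0.56 (0.163). The gene lies on chromosome 7 at 141839059-141873089, plus strand.

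Muc20, a membrane-bound mucin, rose in all 3 subsets. KO mTEChi libraries had 24.3, 17.2 and 22.8 CPM, against 1.38, 2.02 and 3.25 CPM in WT mTEChi. The difference was 3.19 on the log2 scale (SE 0.33, edgeR adjusted p = 8.08e-07). In mTEClo the libraries had 17, 20 and 20.7 CPM in KO, against 5.31, 3.24 and 4.46 CPM in WT (log2 2.14, SE 0.29, edgeR adjusted p = 1.06e-05), and neither medullary pair overlapped. In cTEC they had 13.2, 16.5 and 19.7 CPM in KO, against 13.8, 6.95 and 7.29 CPM in WT, which overlapped (log2 0.83, SE 0.26, edgeR adjusted p = 0.0121); the call was lost without KO pool 6 (0.0655) or WT pool 2 (0.0574), and with the 2 groups compared alone (0.0552). Muc20 lies on chromosome 16 at 32777419-32797435, minus strand, and 381 of its 4027 exon bases (9.46%) are shared with the exons of Muc4 on the opposite strand. The kits named in the labels do not record strand, so reads there cannot be told apart. Muc4 had a log2 fold change of -0.38 in mTEChi (edgeR adjusted p = 0.429), 1.46 in mTEClo (0.00669) and -0.78 in cTEC (0.0746).

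Spdef, the ETS factor of mucous cells, had 18.6, 19.9 and 20.6 CPM in KO mTEClo, against 7.66, 4.66 and 5.8 CPM in WT mTEClo. The groups did not overlap, and Spdef rose by 1.69 (log2, SE 0.29, edgeR adjusted p = 0.000119). In mTEChi the libraries had 4.78, 3.87 and 6.33 CPM in KO, against 4.98, 5.35 and 8.27 CPM in WT (log2 -0.36, SE 0.32, edgeR adjusted p = 0.386). In cTEC they had 10.4, 16.9 and 18.4 CPM in KO, against 16.2, 9.23 and 8.94 CPM in WT (log2 0.42, SE 0.27, edgeR adjusted p = 0.199). Both pairs overlapped; without WT pool 1 the cTEC value was 0.75 (adjusted p = 0.0275).

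Counted together, 1 member rose and 4 fell in mTEChi, where 17.1% of the tested genes rose and 19.3% fell (36.4% in either direction). In mTEClo 3 rose and 0 fell, where 18.9% of genes rose and 15.8% fell (34.7%). The count that fell in mTEClo was also 0 at an unadjusted p under 0.05 in edgeR, and 0 with DESeq2 and with limma-voom; with the 2 groups compared alone it was 1, Ascl3 (edgeR adjusted p = 0.0453). In cTEC 1 rose and 4 fell, where 22.3% rose and 26.7% fell (49%). The KO and WT libraries did not overlap for 6 members in mTEChi, 1 higher and 5 lower in KO, where 24.5% of tested genes lay wholly higher and 31.4% wholly lower (55.9% in all). In mTEClo 5 did not overlap, 3 higher and 2 lower, where 26.8% of genes were higher and 22.5% lower (49.3%). In cTEC 2 did not overlap, both lower, where 25.5% were higher and 25.5% lower (51%). The median log2 fold change of the 8 members was -1.44 in mTEChi, 0.25 in mTEClo and -0.67 in cTEC, beside -0.11, 0.01 and -0.02 over all tested genes.

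**Figure D3:**
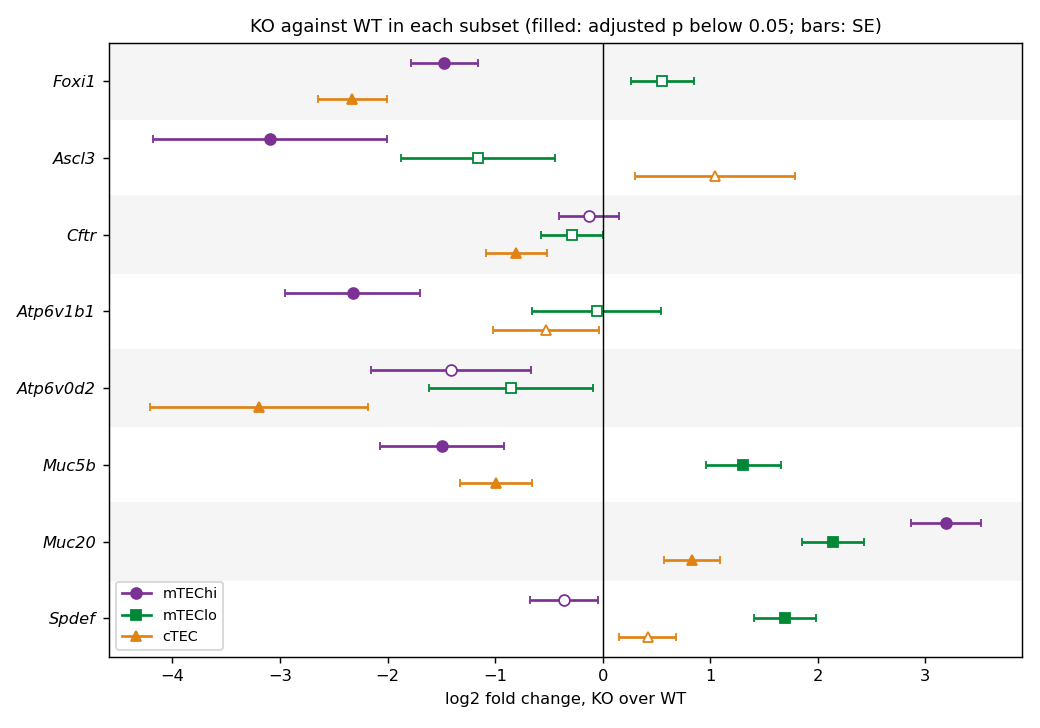
Log2 fold change of each member, KO over WT, in each subset, with SE bars; filled symbols have adjusted p below 0.05. Muc20 is to the right of 0 in all 3 subsets and Foxi1 is to the left in mTEChi and cTEC.

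The effect of the knockout differed between subsets for Foxi1, Ascl3, Muc5b, Muc20 and Spdef, as tested by the difference of the fold changes. Between mTEChi and mTEClo, 3 members differed, where 13.5% of tested genes did (6.72% higher and 6.78% lower): Foxi1 (above), Muc5b (-2.81, SE 0.67, edgeR adjusted p = 0.0077, and 0.0737 with limma-voom) and Spdef (-2.06, SE 0.43, edgeR adjusted p = 0.00257). Between mTEClo and cTEC, 4 members differed, where 26% of genes did (16.4% higher and 9.54% lower): Foxi1 (2.88, SE 0.43, edgeR adjusted p = 5.77e-05), Muc5b (2.30, SE 0.48, 0.00153), Muc20 (1.31, SE 0.39, 0.0164) and Spdef (1.28, SE 0.39, 0.0198). Between mTEChi and cTEC, 2 members differed, where 31.5% of genes did (18.3% higher and 13.2% lower): Muc20 (2.36, SE 0.42, edgeR adjusted p = 0.000245) and Ascl3 (-4.13, SE 1.32, 0.0217). Ascl3's call was lost without mTEChi KO pool 6, mTEChi WT pool 2 or cTEC KO pool 6, and the Muc20 and Spdef calls between mTEClo and cTEC were lost without mTEClo WT pool 2 or cTEC WT pool 1. The interactions share the fold changes of the 3 subsets and are not independent of each other. Cftr, Atp6v1b1 and Atp6v0d2 had no such call, with log2 differences between -2.27 and 2.34. With the mouse pool as a replicate block, Atp6v1b1 passed between mTEChi and mTEClo (-2.40, SE 0.74, edgeR adjusted p = 0.0342; 0.0924 without the block) and between mTEChi and cTEC (-1.98, SE 0.68, 0.0312; 0.0939 without the block).

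**Figure D4:**
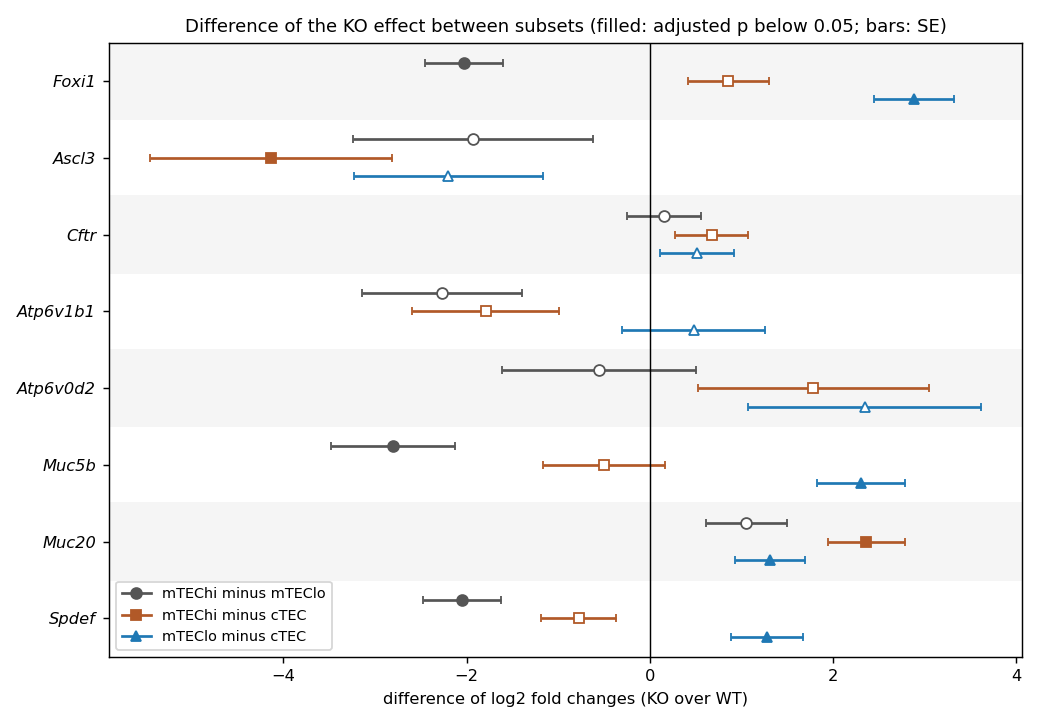
Difference of the KO over WT log2 fold changes between 2 subsets for each member, with SE bars; filled symbols have adjusted p below 0.05. Foxi1 and Muc5b are below 0 for mTEChi minus mTEClo and above 0 for mTEClo minus cTEC.

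Members also differed between subsets of 1 genotype. Muc5b had the widest span of group means, 120 CPM in WT cTEC and 2.27 CPM in KO mTEChi. KO mTEChi was below KO mTEClo by 5.14 on the log2 scale (edgeR adjusted p = 3.25e-08), and WT mTEChi was below WT mTEClo by 2.33 (edgeR adjusted p = 0.000138). Cftr was highest in mTEChi: KO mTEChi was above KO mTEClo (log2 1.14, edgeR adjusted p = 0.00252) and WT mTEChi above WT mTEClo (0.98, edgeR adjusted p = 0.00684). The WT group means of Muc20 were 2.22 CPM in mTEChi, 4.34 CPM in mTEClo and 9.36 CPM in cTEC, and its KO group means in the same order were 21.4, 19.2 and 16.5 CPM, whose libraries overlapped. Between mTEChi and mTEClo, 5 members were called in KO, 1 higher and 4 lower in mTEChi, where 23% of tested genes were higher and 22.4% lower (45.3% in all). In WT 5 were called, 3 higher and 2 lower, where 32.6% were higher and 26.7% lower (59.3%). Between mTEChi and cTEC, 7 were called in KO, 3 higher and 4 lower in mTEChi, where 34% of genes were higher and 28.4% lower (62.4%). In WT 6 were called, 3 higher and 3 lower, where 35.9% were higher and 28.5% lower (64.4%). Between mTEClo and cTEC, 3 were called in KO, 2 higher and 1 lower in mTEClo, where 21.2% of genes were higher and 15.8% lower (37%). In WT 5 were called, 1 higher and 4 lower, where 13% were higher and 14.4% lower (27.4%).

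The wider lists gave mixed counts too. Over all tested genes, 17.1% rose and 19.3% fell in mTEChi, 18.9% and 15.8% in mTEClo, and 22.3% and 26.7% in cTEC. The median log2 fold change of all tested genes was -0.11, 0.01 and -0.02 in the same order. The list counts and medians below stand beside these values. Of 27 ionocyte and intercalated cell genes, 26 were tested; in mTEChi 2 rose and 6 fell, in mTEClo 5 rose and 4 fell, and in cTEC 1 rose and 11 fell, with a median log2 fold change of -0.75, -0.02 and -1.04. Hepacam2, an immunoglobulin-family gene, rose in KO mTEChi (log2 1.72, edgeR adjusted p = 1.81e-07) and KO mTEClo (1.26, 2.15e-06) and fell in KO cTEC (-1.95, 4.95e-09). Car2, a cytosolic carbonic anhydrase, fell in all 3 (-1.16, -1.52 and -3.06). Atp6v0a4, the pump subunit of intercalated cells, fell in mTEChi (-2.38, edgeR adjusted p = 0.00263), and Moxd1 rose there (1.36, 0.0231). Tfcp2l1, a transcription factor of intercalated cells, was the 1 gene that rose in cTEC (0.88), and it rose in mTEClo (0.83) with the ammonia channel genes Rhbg (1.33) and Rhcg (2.47) and the sodium, potassium and chloride cotransporter gene Slc12a2 (0.80). The forkhead gene Foxi2 fell in mTEChi, with 2.51, 1.75 and 1.62 CPM in KO and 6.09, 6.18 and 5.97 CPM in WT (-1.63, edgeR adjusted p = 0.0268), and it fell in mTEClo (-2.25) and cTEC (-3.72). Dmrt2 fell in mTEClo (-0.54) and cTEC (-0.35), Rhbg fell in cTEC (-1.10), and P2ry14, a purinergic receptor gene, fell in mTEChi (-0.89), mTEClo (-0.82) and cTEC (-2.44).

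Of 20 other V-ATPase genes, 19 were tested: 5 rose and 2 fell in mTEChi, 13 rose and 1 fell in mTEClo, and 9 rose and 2 fell in cTEC, with a median of 0.19, 0.51 and 0.29. Atp6v0e2 rose in mTEChi (0.76) and mTEClo (1.48), Atp6v0a2 rose in the same subsets (0.78 and 0.56), and Atp6ap1 (0.70, 0.97 and 0.89) and Atp6v1h (0.40, 0.91 and 0.79) rose in mTEChi, mTEClo and cTEC. The genes that fell were Atp6v1c1 (-0.36) and Atp6v0b (-0.26) in mTEChi, Tcirg1 (-0.98) in mTEClo, and Atp6v1c1 (-0.62) and Tcirg1 (-1.01) in cTEC.

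Of 16 mucins, 14 were tested; in mTEChi 2 rose and 8 fell, in mTEClo 4 rose and 4 fell, and in cTEC 1 rose and 6 fell, with a median of -1.43, 0.13 and -0.64. Muc1, a membrane mucin, was among the genes that rose in each subset (0.64, 1.71 and 1.15), and Muc15 rose in both medullary subsets (0.92 and 1.47) and fell in cTEC (-0.76). Muc5ac, the gel-forming neighbour of Muc5b, fell in mTEChi (-2.45, edgeR adjusted p = 0.00583), and Muc6 fell in both medullary subsets (-2.64 and -2.22). In mTEClo Muc4 (1.46) and Muc21 (1.42) also rose. Muc3 fell in mTEChi (-1.67), mTEClo (-1.23) and cTEC (-2.46). Muc13 fell in cTEC (-2.86). Mucl1 and Mucl2 fell in all 3 subsets (log2 between -4.28 and -1.86), but they are close paralogs and the counting could split reads between them, so their values are uncertain.

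Of 27 goblet and airway secretory genes, 25 were tested; in mTEChi 5 rose and 11 fell, in mTEClo 12 rose and 4 fell, and in cTEC 3 rose and 14 fell, with a median of -0.54, 0.79 and -1.05. Clca1, a goblet cell gene, had 127, 110 and 122 CPM in KO mTEClo, against 25.9, 12.2 and 17 CPM in WT mTEClo (log2 2.69, edgeR adjusted p = 0.000153), and the forkhead gene Foxa1 rose there by 1.99. Agr2, which folds mucins, rose there as well (1.90). Bpifa1, a secreted airway protein gene, had 30, 35 and 63.4 CPM in KO cTEC, against 1490, 1080 and 1420 CPM in WT cTEC (-4.95, edgeR adjusted p = 6.74e-09), and it fell in mTEChi (-2.24) and mTEClo (-1.50). Galnt12, a glycosyltransferase of mucin-type sugars, fell in all 3 subsets (-1.67, -1.67 and -2.68). Cyp2f2, an airway club cell gene, rose in all 3 (1.99, 1.26 and 1.14), Scgb1a1, another club cell gene, rose in mTEClo (1.96) and fell in cTEC (-1.38), Tff1 fell in mTEChi (-2.96) and cTEC (-2.23), and Foxa2 fell in cTEC (-2.66). Besides Cyp2f2, the genes that rose in mTEChi were Foxa3 (0.93), Clca1 (1.70), Fcgbp (0.94) and Foxa1 (0.82), and in cTEC Foxa3 (0.69) and Xbp1 (0.61). The genes that fell in mTEClo, with Galnt12, were Spink4 (-2.02), Bpifa1 (-1.50) and Bpifb1 (-3.27). The parathyroid hormone gene Pth averaged 1650 CPM in KO mTEClo and 141 CPM in WT mTEClo; the part of parathyroid-like cells in these counts was not tested.

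**Figure D5:**
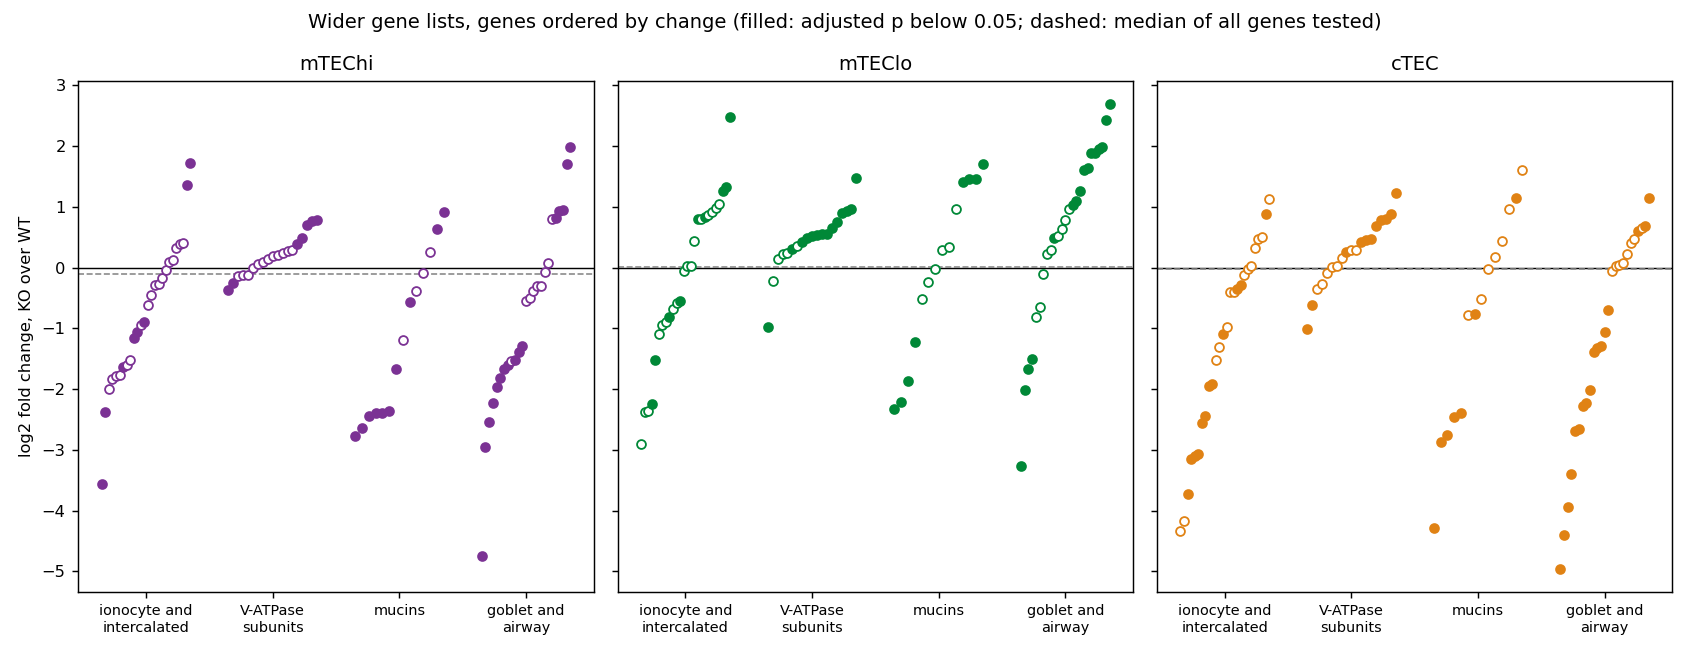
Log2 fold change, KO over WT, of every tested gene of the 4 wider lists in each subset, ordered by size within a list; filled points have adjusted p below 0.05 and the dashed line is the median of all tested genes. The V-ATPase points lie between -1.01 and 1.48, and the goblet and airway points reach 2.69 in mTEClo and -4.95 in cTEC.

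As a description over the 18 libraries, which share subset and genotype differences, the genes whose log2 CPM followed each member most closely were found by Pearson correlation. Foxi1 was closest to Col22a1 (0.939), Kif12 (0.932) and Pcbd1 (0.927), and Spdef to Lrrc26 (0.951), Slc25a23 (0.915) and Cp (0.884). Muc5b was closest to Golim4 (0.954), Gsto1 (0.953) and Sparc (0.94), Muc20 to Themis (0.93), Coa7 (0.928) and Aqp4 (0.923), and Cftr to Hook1 (0.919), Sec1 (0.917) and Sema3b (0.913). Atp6v0d2 was closest to Pla2g2f (0.922), Nipal4 (0.918) and Gc (0.909), Atp6v1b1 to Galnt10 (0.88), Rac3 (0.82) and Pnp (0.819), and Ascl3 to Dhrs7 (0.86), Mdc1 (0.835) and Dnase1l1 (0.818).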

How the data were processed

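RNA from sorted TEC was made into SMART-Seq v4 and Nextera XT libraries, per the labels' protocols, and the authors deposited raw read counts per gene from featureCounts on mm10, per the submitters' processing notes; the aligner and counting options are not named in those notes. The 27179 genes were filtered with filterByExpr (minimum count 10), which left 19364, scaled by TMM and fitted in 1 model of 6 groups with edgeR 4.0.16 (R 4.3.3), quasi-likelihood test, Benjamini-Hochberg adjustment, threshold 0.05. The method was tested on simulated data with the same spread for every gene, changes only in well-counted genes and no pool effect. That test does not show how changes in members with few reads are recovered. CPM are TMM-scaled. CPM per kb uses the deposited gene length. Each SE of an edgeR value, also in the figures, was worked back from the test. It is the absolute log2 fold change divided by the square root of the test's F statistic, and so is approximate, above all at few reads. The members and lists were chosen with earlier results of these data known. Named genes include the members, Kat7, the pump paralogs and the 3 genes most correlated with each member (mean of at least 5 CPM). From each of the 4 wider lists they include up to 3 genes with the smallest adjusted p in each subset, and others needed by small counts. Agr2 and Muc5ac were added after their values were seen. The named markers of TEC and other cell types come from their own lists, to which the rule of smallest adjusted p was not applied. Per the labels, 1 pool gave all 3 subsets, so pool numbers pair subsets but not genotypes; deviations of libraries of 1 pool correlated by -0.000944 to 0.239 (18 pairs). No replicates were counted as duplicates. Alternatives were RLE scaling, no filter, DESeq2 1.42.0, groups alone, a fold of at least 2, thinned libraries, limma 3.58.1 voom, a pool block and leaving out each library.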

Additional observations from a re-analysis of the deposited data

Results flagged for a closer look

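The effect of the knockout differed between subsets in 9 member comparisons, each by a test of the difference itself (edgeR, Benjamini-Hochberg adjusted over all tested genes). Between mTEChi and mTEClo the log2 differences were -2.026 for Foxi1, -2.805 for Muc5b and -2.055 for Spdef. Between mTEChi and cTEC they were -4.133 for Ascl3 and 2.361 for Muc20. Between mTEClo and cTEC they were 2.881 for Foxi1, 2.303 for Muc5b, 1.308 for Muc20 and 1.277 for Spdef. Of all tested genes, 13.5%, 31.5% and 26% differed in these comparisons, in the order given. The calls of Ascl3, of Muc5b between mTEChi and mTEClo, and of Muc20 and Spdef between mTEClo and cTEC were lost under some alternatives.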

How the results depend on the processing

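Of 53 called member results, 30 kept their call under every alternative that gave a value. The limit of a fold of at least 2 was not applied to these single results. Among the 30, Cftr in WT mTEChi against WT mTEClo (fold 1.97) and against WT cTEC (fold 1.88) would not meet it. Fits that filtered out a member or gave it no adjusted p are not counted. Over the 722 alternative values of the 53 results, 72 lost the call and 0 changed sign. The count of members called for KO over WT in mTEChi, 5 in the reported fit, was 3 with limma-voom and 3 to 4 leaving out 1 library; in mTEClo it was 2 to 3 leaving out 1 library. In cTEC, where it was 5, it was 2 with the groups compared alone, 2 with a fold of at least 2, and 3 to 5 leaving out 1 library. For mTEChi against mTEClo in WT (5) it was 2 with the fold limit and 2 to 5 leaving out 1 library; for mTEChi against cTEC in WT (6), 3 with the fold limit and 4 to 6; for mTEClo against cTEC in WT (5), 2 with the groups alone and 2 to 4. The interaction counts were 1 with thinned libraries and 1 to 4 leaving out 1 library between mTEChi and cTEC (2), and 2 to 5 between mTEClo and cTEC (4). The KO counts leaving out 1 library were 4 to 5 for mTEChi against mTEClo, 7 for mTEChi against cTEC and 2 to 3 for mTEClo against cTEC, and the interaction between mTEChi and mTEClo gave 3. The KO over WT fold change of Atp6v1b1, which was not called in mTEClo or cTEC, changed sign in mTEClo with voom (0.35), without KO pool 4 (0.22), WT pool 1 (0.31) or WT pool 2 (0.26), and in cTEC without WT pool 1 (0.15); leaving out 1 library, its values ran between -0.53 and 0.31 in mTEClo and between -0.85 and 0.15 in cTEC. RLE scaling and DESeq2 moved the median of all genes by at most 0.101. With the pool as a replicate block, the interaction counts were 4 between mTEChi and mTEClo, 3 between mTEChi and cTEC and 4 between mTEClo and cTEC, and the subset counts equalled the reported ones; the 2 further calls are those of Atp6v1b1 given above, and the block changed no other member call. The cause of these changes was not tested. Low counts limit Ascl3, Atp6v1b1 and Atp6v0d2.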
